A study of Mus musculus with 9 samples.

Results

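The genes that mark blood vessels were examined in whole NB9464 tumors. They comprised 28 genes of endothelial cells, 8 genes of mural cells (pericytes and vascular smooth muscle) and Angpt1, a ligand made outside the endothelium, which was kept apart. These 37 genes were chosen by name as vascular markers and each was matched to 1 of the 54429 gene symbols in the count table. The rule used names and not values, but the names were chosen with earlier results of these data known. NB9464, a mouse neuroblastoma line, was implanted subcutaneously in C57BL/6 WT mice that were 4 to 6 weeks old. Treatment began when tumors reached 250 mm3, and RNA-seq gave 3 libraries in each of 3 groups, each labelled as a whole tumor. A library is called a tumor in what follows, although no source states that the 3 libraries of a group came from separate animals. The vehicle group received none of the agents. The R788 + anti-PDL1 group received R788 (fostamatinib, a prodrug inhibitor of the kinase Syk, 50 mg/kg) together with an antibody against the checkpoint ligand PD-L1. The Rad + R788 + anti-PDL1 group received the same agents plus 10 Gy of radiation. Dosing took place 4 times between day 28 and day 37, and the series text does not state which agents these doses cover. All 9 tumors came from 1 implanted cell line, and in each the RNA of tumor cells and host cells, both of mouse origin, was sequenced together. Radiation, R788 and anti-PDL1 as single agents were not analysed here.

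Blood vessels are lined by endothelial cells, which are held together by VE-cadherin (Cdh5), PECAM1 and claudin 5, and whose identity is kept by transcription factors of the ETS family (Erg, Fli1) and the SOXF family (Sox17, Sox18). Pericytes and smooth muscle cells wrap the endothelial tube. The layers signal through angiopoietins and their receptor Tek (TIE2), through Notch ligands and receptors, and through PDGF. In growing tumors, tip cells at the front of new sprouts produce Dll4, Esm1, Apln and Angpt2, and the vessels are often leaky and poorly covered by pericytes.

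Total counts ranged from 18276683 to 23397886 per library, and the upper limit that 0 counts leave (3 counts) lay between 0.114 and 0.221 CPM, the standard unit for a count relative to its library total, here after TMM scaling of the totals. Floors and other limits of this kind cover counting error only. The first Rad + R788 + anti-PDL1 library stood apart. Its TMM factor was 0.743 against 0.975 to 1.12 in the other 8 libraries, its share of mitochondrial counts was 1.97% against 3.48% to 5.71%, and its correlation with the other libraries across genes (log2(CPM + 1)) was 0.886 to 0.928 against 0.959 to 0.991 among the others. R788 + anti-PDL1 replicate 2 also stood apart for the vascular genes, and the main results that rest on either library are given with and without it. The label of the tumors was only partly matched by neuroblast markers. Of the sympathetic neuroblast genes, Th, the rate-limiting enzyme of catecholamine synthesis, was at 0 in all 9 libraries. Dbh, Phox2a and Chga were at or near 0, with at most 3 counts in any library, and Ddc was at 3.43 to 19.6 CPM. Mycn (93.2 to 250 CPM) and Hand2 (324 to 866 CPM) were present in each library. Endothelial markers were present in every tumor. Pecam1 had 262 to 1177 counts and Cdh5 77 to 739 counts per library.

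Of the 37 genes, 36 passed the filter on low counts (28 endothelial, 8 mural). Angpt1, the ligand that activates Tek and is made by perivascular cells, was at or near the floor, with 1, 3 and 0 counts in vehicle tumors, 6, 12 and 5 with R788 + anti-PDL1 and 3, 2 and 5 with Rad + R788 + anti-PDL1. It was therefore not tested. Levels between genes were compared as CPM per kilobase of exon. In vehicle tumors Des, the intermediate filament of pericytes and muscle, was the highest of the 37 at 28.2 ± 7.54 CPM per kb (SD, n = 3). Notch3, the Notch receptor of mural cells, followed at 16.5 ± 3.61, then Mcam (CD146), an adhesion molecule of pericytes, endothelium and several tumor types, at 15.4 ± 2.03, and Plvap, which forms the diaphragms of endothelial fenestrae, at 14.6 ± 1.81 CPM per kb. The last 3 differed by less than the SD of Notch3. Tagln, an actin-binding protein of smooth muscle, measured 11.4 ± 9.51 CPM per kb and Cd34, a sialomucin of capillary endothelium and progenitors, 10 ± 1.04 CPM per kb. The pan-endothelial junction genes were lower, with Cdh5 at 2.84 ± 0.727 and Pecam1 at 2.44 ± 0.112 CPM per kb. The lowest tested genes were Vwf, the clotting glycoprotein stored by endothelium and platelets, at 0.146 ± 0.124 CPM per kb and Sox17 at 0.0948 ± 0.0572 CPM per kb.

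R788 + anti-PDL1 was first compared with vehicle. No member was called (0 of 36 at an adjusted p under 0.05 in edgeR's quasi-likelihood test with Benjamini-Hochberg adjustment), against 0.678% of all 15931 genes tested. At an unadjusted p under 0.05 there were 10 members, 9 of them higher and 1 lower with treatment, where 5.96% of all genes tested were higher and 5.69% lower (11.7% in both directions). In 8 members every treated library lay above every vehicle library and in 1 member below, against 13.6% and 16.6% of all genes tested (30.1% in both directions). DESeq2, whose calls over all genes are given further below, called 4 members (Acta2, Des, Cd34, Pecam1). Limma-voom called 1 (Acta2) and voom with sample quality weights 9, without a share of all genes here. The median log2 fold change was 0.75 over the 28 endothelial members, of which 25 were above 0, and 0.01 over the 8 mural members, of which 4 were above 0. The median over all genes tested was -0.02. Because whole tumors were sequenced, fewer cells of a type and less RNA per cell cannot be told apart in any of these values.

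**Figure D1:**
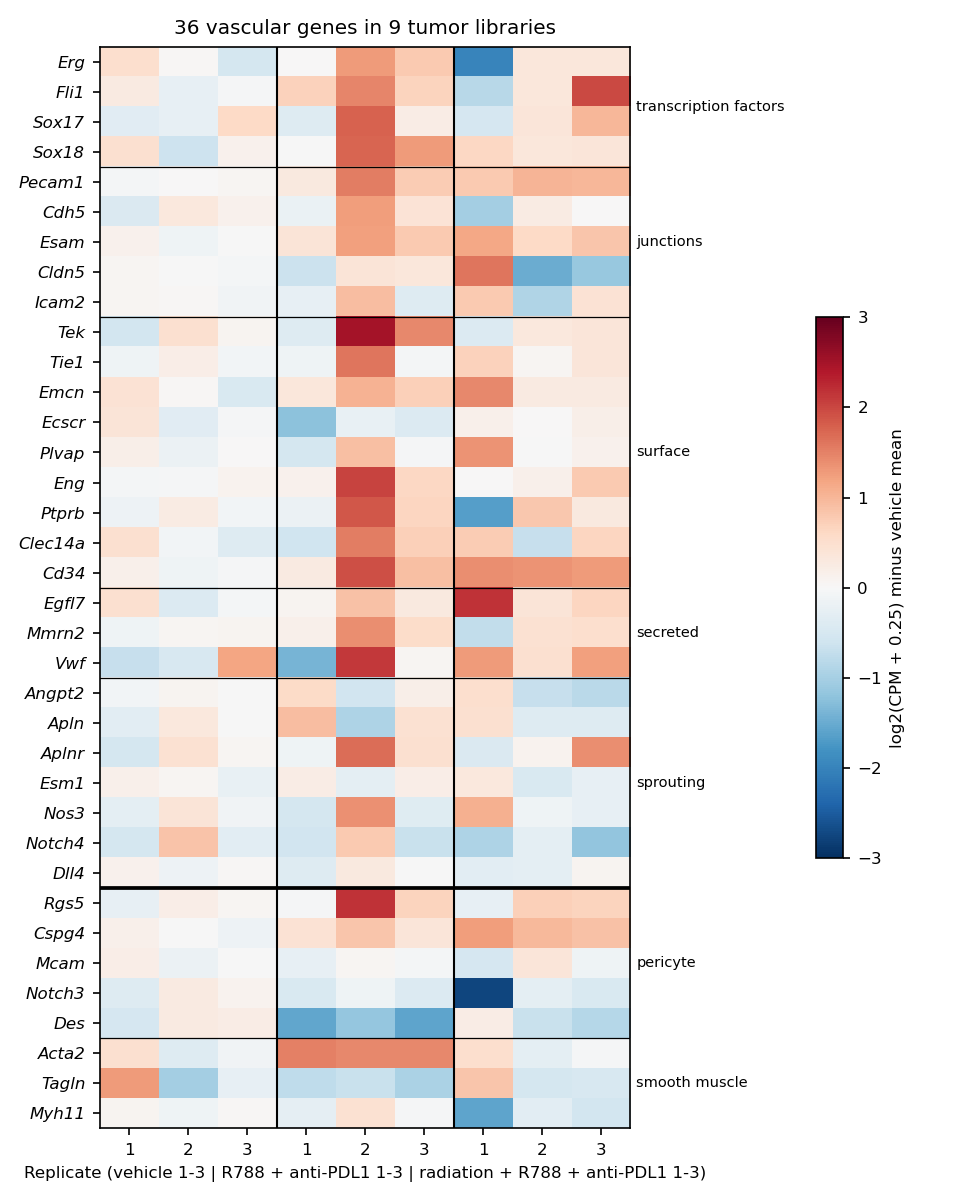
Heat map of the 36 tested genes (rows, grouped by role, endothelial above the thick line and mural below) in the 9 libraries (columns). Color gives log2(CPM + 0.25) minus the mean of the 3 vehicle libraries. R788 + anti-PDL1 replicate 2 was the highest of its group for 25 of 28 endothelial genes, while Acta2 was high and Des low in all 3 R788 + anti-PDL1 libraries.

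The endothelial values of the R788 + anti-PDL1 group rested largely on a single tumor. Replicate 2 was the highest of its group for 25 of 28 endothelial and 7 of 8 mural members, and for 41.7% of all genes tested. It was the highest of all 9 libraries for 18 of 28 endothelial members and 2 of 8 mural members (Rgs5 and Myh11), against 12.7% of all genes tested. Relative to the mean of replicates 1 and 3, its median ratio was 2.15 over the endothelial members, 1.28 over the mural members and 0.988 over all genes tested. Without replicate 2 the endothelial median log2 fold change against vehicle was 0.20, with 18 of 28 members above 0. Tie1, Plvap, Sox17, Vwf and Nos3 were then below 0, at -0.11, -0.27, -0.17, -0.86 and -0.61. The 3 endothelial members that were lowest, not highest, in replicate 2 were Apln, Angpt2 and Esm1. Apln, the ligand released by sprouting endothelium and induced by low oxygen, measured 24.1, 6.48 and 17.5 CPM in replicates 1 to 3. Angpt2, the antagonist of Angpt1 at Tek that loosens vessel walls, measured 5.68, 2.44 and 4.22 CPM. Esm1, a proteoglycan secreted by tip cells, measured 8.41, 5.87 and 8.27 CPM. These 3 genes thus ran opposite to Tek, whose level in the same libraries was 0.529, 5.45 and 2.5 CPM, and the ratio of Angpt2 to Tek counts was 10.8, 0.448 and 1.69 in replicates 1 to 3. The comparison of these genes was chosen after their values were seen.

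Some markers of other cell types also stood high in replicate 2. The summed level of 10 fibroblast markers, all detected, was 5530 CPM there against 2930 and 3460 CPM in the other treated tumors and 3050 to 3840 CPM in vehicle tumors. Most of the sum was Col1a1 (2840 CPM) and Col3a1 (2120 CPM). In replicate 2 Lum (21 CPM) and Dpt (68.6 CPM) lay within the vehicle range, and the other fibroblast markers lay above it. Of the 5 keratinocyte markers only Krt5 was high enough to be tested, and it carried the sum of the list. It measured 63 CPM in replicate 2, 1.89 and 22.7 CPM in the other treated tumors and 3.05 to 7.5 CPM in vehicle tumors, whereas Krt14 had 4, 41 and 43 counts in vehicle tumors and 0 in all 3 treated tumors, and Krt1, Krt10 and Dsg3 were at or near 0. The 9 leukocyte markers stand for cells that also make Pecam1, Eng, Cd34, Fli1 and Icam2. They summed to 319, 348 and 320 CPM with R788 + anti-PDL1 and to 129 to 253 CPM in vehicle tumors, so that the sums did not overlap. Of the 9 single markers, 4 lay above vehicle without overlap, against 13.6% of all genes tested. In edgeR 0 of the 9 had an unadjusted p under 0.05. The part of leukocytes in the endothelial values was not tested.

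Among the junction genes, Pecam1 and Esam had the lowest p-values. Pecam1 (CD31) measured 14.5, 15.4 and 15.8 CPM in vehicle tumors, 18.7, 44.9 and 26.1 CPM with R788 + anti-PDL1 and 26.4, 31 and 30.4 CPM with Rad + R788 + anti-PDL1. Every treated library lay above every vehicle library. Its log2 fold change was 0.97 ± 0.30 (SE) for R788 + anti-PDL1 against vehicle (edgeR adjusted p = 0.218, and 0.56 without replicate 2) and 0.94 ± 0.30 for Rad + R788 + anti-PDL1 against vehicle (edgeR adjusted p = 0.278). Esam, an adhesion molecule of endothelial tight junctions, measured 4.25, 3.54 and 3.83 CPM in vehicle tumors, 5.15, 9.38 and 6.84 CPM with R788 + anti-PDL1 and 8.99, 5.93 and 7.12 CPM with Rad + R788 + anti-PDL1. Again no treated library overlapped the vehicle range, with log2 fold changes of 0.88 ± 0.33 (edgeR adjusted p = 0.322) and 0.92 ± 0.33 (edgeR adjusted p = 0.314). The other junction genes overlapped between groups. Cdh5 ranged from 8.55 to 14.5 CPM in vehicle tumors, from 10.1 to 28.2 CPM with R788 + anti-PDL1 and from 5.67 to 14 CPM with Rad + R788 + anti-PDL1. Cldn5, the claudin that seals the tightest capillaries, lay between 0.304 and 4.49 CPM over the 9 libraries, and Icam2, an adhesion molecule shared with leukocytes and platelets, between 0.558 and 2.59 CPM.

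Among the surface receptors, Cd34 had the largest counts. It measured 81.2, 66.3 and 71.2 CPM in vehicle tumors, 87, 279 and 137 CPM with R788 + anti-PDL1 and 190, 185 and 177 CPM with Rad + R788 + anti-PDL1. All 6 treated tumors lay above all 3 vehicle tumors, and the 3 irradiated tumors lay within a narrow range. The log2 fold change against vehicle was 1.20 ± 0.36 for R788 + anti-PDL1 (edgeR adjusted p = 0.205; without replicate 2 it was 0.62) and 1.34 ± 0.36 for Rad + R788 + anti-PDL1 (edgeR adjusted p = 0.222). Eng is the TGF-beta co-receptor endoglin, and its exons overlap those of Fpgs on the other strand. It measured 10.2, 10.5 and 11.5 CPM in vehicle tumors and 11.7, 44.3 and 16.5 CPM with R788 + anti-PDL1. The groups did not overlap, but replicate 1 was just above the vehicle range. Its log2 fold change of 1.17 ± 0.46 (edgeR adjusted p = 0.36) was 0.39 without replicate 2. Tek, the angiopoietin receptor, had a log2 fold change of 1.79 ± 0.78 (edgeR adjusted p = 0.411), the highest of any member, and 0.89 without replicate 2. Its vehicle libraries held 0.441, 1.17 and 0.821 CPM, so that replicate 1 at 0.529 CPM lay inside the vehicle range. Ecscr, a regulator of endothelial migration, went the other way with 17.4, 10.5 and 12.9 CPM in vehicle tumors and 5.51, 11.4 and 10 CPM with R788 + anti-PDL1. Its groups overlapped, and its log2 fold change of -0.60 ± 0.32 (edgeR adjusted p = 0.533) was the lowest of the endothelial members. Tie1, Emcn, Plvap, Ptprb and Clec14a, which are further glycoproteins and receptors of the endothelial surface, had log2 fold changes from 0.23 (Plvap) to 1.05 (Ptprb), and their groups overlapped. Without replicate 2 they lay between -0.27 (Plvap) and 0.54 (Emcn), with Ptprb at 0.29.

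The endothelial transcription factors were scarce. Sox18 measured 2.59, 1.08 and 1.97 CPM in vehicle tumors and 1.76, 6.52 and 4.67 CPM with R788 + anti-PDL1. The groups overlapped at replicate 1, with a log2 fold change of 1.20 ± 0.53 (edgeR adjusted p = 0.423) that was 0.78 without replicate 2. Erg, Fli1 and Sox17 had log2 fold changes of 0.90, 1.06 and 1.06, which were 0.50, 0.73 and -0.17 without replicate 2. Fli1, which is also made by leukocytes and megakaryocytes, was the only one of the 4 without overlap, at 1.66 to 2.48 CPM in vehicle tumors and 3.36 to 5.99 CPM with R788 + anti-PDL1. Its highest level of all, 8.71 CPM, was in Rad + R788 + anti-PDL1 replicate 3, the library with the highest leukocyte sum (800 CPM, with 181 and 160 CPM in replicates 1 and 2). Sox17 had 3 to 53 counts per library.

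Promoter sequence was available for 19 of the 37 genes (RefSeq, GRCm38.p6, 250 bases before to 50 bases after each start). ETS factors such as Erg and Fli1 bind DNA around a GGAA core, so the string CCGGAA was searched on both strands, as was the string ACAGGAA and, as the last of the set, the string AGGAAG. The latter pair share letters, so that 1 stretch can hold both. At least 1 of the 3 strings was in 9 of 13 endothelial and 0 of 6 mural genes, against 53% of 20484 genes with a promoter in the table. CCGGAA was in none of the 19 genes (19.4% of all genes), ACAGGAA in 5 endothelial genes (9.48%) and AGGAAG in 8 endothelial genes (38.4%). The first 3 endothelial genes of the list that hold a string are shown because their windows hold the letters searched, and Erg is itself a factor of this family. Capitals mark the strings on either strand. Tie1 lies at chr4:118489800-118490099 (minus strand), Emcn at chr3:137340828-137341127 (plus strand) and Erg at chr16:95459299-95459598 (minus strand, 1 of several starts).
Tie1: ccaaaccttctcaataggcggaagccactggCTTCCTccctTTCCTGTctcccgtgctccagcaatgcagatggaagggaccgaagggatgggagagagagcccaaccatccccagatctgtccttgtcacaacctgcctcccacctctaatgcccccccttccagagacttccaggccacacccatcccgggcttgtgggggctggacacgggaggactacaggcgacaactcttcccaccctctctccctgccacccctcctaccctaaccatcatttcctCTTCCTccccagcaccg
Emcn: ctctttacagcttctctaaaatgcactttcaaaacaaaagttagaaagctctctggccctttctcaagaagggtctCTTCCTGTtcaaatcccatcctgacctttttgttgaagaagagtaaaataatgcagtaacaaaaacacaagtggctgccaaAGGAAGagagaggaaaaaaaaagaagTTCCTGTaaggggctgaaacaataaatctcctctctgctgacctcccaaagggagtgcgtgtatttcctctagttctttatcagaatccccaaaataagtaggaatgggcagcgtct
Erg: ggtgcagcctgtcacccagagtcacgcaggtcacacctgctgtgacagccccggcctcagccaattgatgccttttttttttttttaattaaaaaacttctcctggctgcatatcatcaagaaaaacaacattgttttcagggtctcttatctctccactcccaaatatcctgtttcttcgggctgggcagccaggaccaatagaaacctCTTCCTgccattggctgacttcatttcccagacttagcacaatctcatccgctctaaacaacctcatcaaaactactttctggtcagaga
A match is a description of the letters and not a site of binding. Of these genes, Tie1 measured 3.37 to 4.31 CPM in vehicle tumors and 3.35 to 11.7 CPM with R788 + anti-PDL1, and Emcn 1.31 to 2.65 and 2.47 to 4.16 CPM, both with overlap.

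Among the secreted genes, Mmrn2, a matrix glycoprotein of the endothelial surface, lay at 3.09 to 3.56 CPM in vehicle tumors and 3.79 to 9.35 CPM with R788 + anti-PDL1 without overlap (log2 fold change 0.84 ± 0.46, edgeR adjusted p = 0.555, and 0.39 without replicate 2). Vwf was the most uneven, with 1.1, 1.3 and 4.65 CPM in vehicle tumors and 0.573, 9.23 and 2.01 CPM with R788 + anti-PDL1. The 6 megakaryocyte and platelet markers, cells that also make Vwf, summed to 115 to 129 CPM in vehicle tumors, 114 to 142 CPM with R788 + anti-PDL1 and 146 to 199 CPM with Rad + R788 + anti-PDL1. Most of this sum was Itgb3 (81.5 to 129 CPM over the 9 libraries), an integrin that is not limited to platelets. The platelet chemokine Ppbp was at 0.717 to 3.81 CPM in vehicle tumors and 0.114 to 0.617 CPM with R788 + anti-PDL1. The part of platelets in the Vwf values was not tested. The 7 sprouting and vascular tone genes had a median log2 fold change of 0.14 and none at an unadjusted p under 0.05. Dll4, the Notch ligand of tip cells, was at 3.63 to 4.47 CPM in vehicle tumors and 3.04 to 5.04 CPM with R788 + anti-PDL1 (log2 fold change -0.02). Notch4, an endothelial Notch receptor, Nos3, the endothelial nitric oxide synthase, and Aplnr, the receptor of Apln, had log2 fold changes of -0.13, 0.47 and 0.91 (Nos3 -0.61 and Aplnr 0.17 without replicate 2), and Angpt2, Apln and Esm1 of 0.14, 0.32 and 0.05.

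The mural genes diverged from one another, and those with the lowest p-values belonged to this class. Acta2, the alpha-actin of smooth muscle and of activated pericytes and fibroblasts (chr19:34241090-34255590, minus strand, GRCm38), measured 13.8, 7.54 and 9.2 CPM in vehicle tumors and 28.7, 27.2 and 27.4 CPM with R788 + anti-PDL1. With Rad + R788 + anti-PDL1 it measured 14.2, 7.96 and 9.58 CPM. The R788 + anti-PDL1 tumors lay above all other tumors, close together, whereas the irradiated tumors overlapped the vehicle range. Its log2 fold change was 1.45 ± 0.30 against vehicle (edgeR adjusted p = 0.0763, DESeq2 adjusted p = 0.000415, range over 19 alternatives 4.9e-05 to 0.323).

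Des (chr1:75360329-75368579, plus strand, GRCm38, where the exons of Gm15179 overlap on the other strand) showed the opposite order. It measured 73.3, 125 and 120 CPM in vehicle tumors, 35.1, 45.8 and 34.1 CPM with R788 + anti-PDL1 and 120, 65 and 57.4 CPM with Rad + R788 + anti-PDL1. All R788 + anti-PDL1 tumors lay below all other tumors. The log2 fold change against vehicle was -1.46 ± 0.32 (edgeR adjusted p = 0.0879, DESeq2 adjusted p = 0.00291, range over 19 alternatives 2.45e-05 to 0.368). Tagln (SM22) is usually made together with Acta2 in smooth muscle, and its exons overlap those of Gm48529 and Pcsk7 on the other strand. It measured 44.2, 8.75 and 15.1 CPM in vehicle tumors and 10.6, 11.3 and 9.21 CPM with R788 + anti-PDL1. These groups overlapped, and the vehicle mean rested on replicate 1 (log2 fold change -1.13 ± 0.58, edgeR adjusted p = 0.517, and -0.18 without that library). The ratio of Acta2 to Tagln counts, which does not depend on library scaling, was 0.313, 0.862 and 0.609 in vehicle tumors, 2.72, 2.42 and 2.97 with R788 + anti-PDL1 and 0.438, 0.643 and 0.747 with Rad + R788 + anti-PDL1. The ratio was chosen after the values were seen, and it set the R788 + anti-PDL1 tumors apart from the other 6. Myh11, the myosin heavy chain that defines mature smooth muscle, was at 1.28 to 2.29 CPM in the 6 tumors without radiation.

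**Figure D2:**
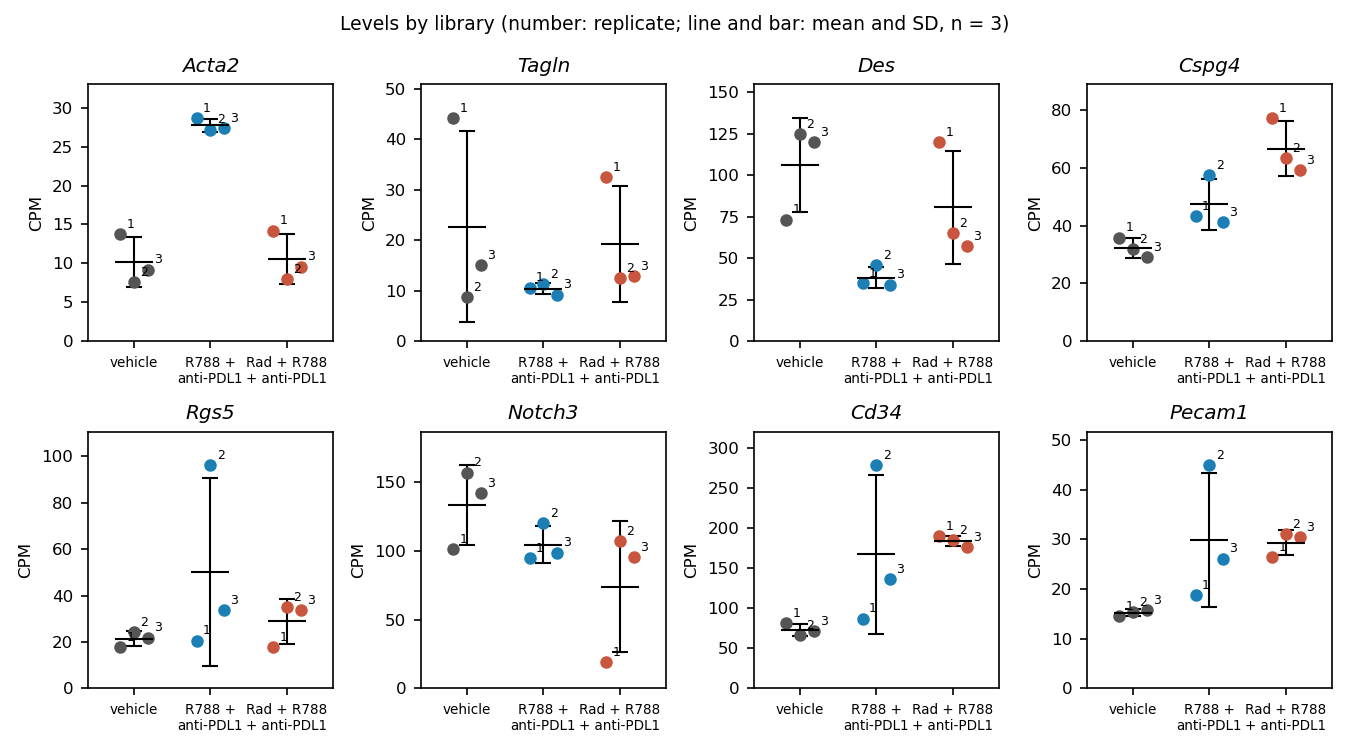
CPM of 6 mural genes and of Cd34 and Pecam1 in each library (points, numbered by replicate), with the group mean and SD (line and bar, n = 3). Acta2 separated the R788 + anti-PDL1 tumors at 27.2 to 28.7 CPM from the other 6 tumors at 7.54 to 14.2 CPM, and Des showed the opposite order.

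Rgs5, a regulator of G-protein signaling and a classical pericyte marker, measured 17.8, 24.3 and 21.9 CPM in vehicle tumors and 20.6, 96.2 and 33.8 CPM with R788 + anti-PDL1. It behaved like the endothelial members in that replicate 2 was high and replicate 1 lay in the vehicle range (log2 fold change 1.24 ± 0.51, edgeR adjusted p = 0.388, and 0.35 without replicate 2). Cspg4 (NG2), a proteoglycan of pericytes and of some glial and tumor cells, measured 35.8, 31.9 and 29.1 CPM in vehicle tumors and 43.2, 57.5 and 41.3 CPM with R788 + anti-PDL1. These groups did not overlap (log2 fold change 0.55 ± 0.20, edgeR adjusted p = 0.319). Notch3 at 94.7 to 120 CPM and Mcam at 43.2 to 53 CPM with R788 + anti-PDL1 overlapped the vehicle tumors. Markers of other cells that make these genes were measured as well. The 12 markers of skeletal muscle, which makes Des, summed to 11.6 to 13.5 CPM in vehicle tumors and 12.8 to 15.1 CPM with R788 + anti-PDL1. With Rad + R788 + anti-PDL1 the sums were 32, 12.7 and 12.6 CPM. Replicate 1 of that group, the library that stood apart, also had its highest Des level (120 CPM, against 65 and 57.4 CPM). The 6 Schwann cell markers, of which Foxd3 was at 0 in all libraries, summed to 5.82 to 20.1 CPM. The part of fibroblasts, muscle and tumor cells in the mural values was not tested.

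The promoters of the smooth muscle genes of the list were to be shown, and Acta2 was the only member of these with a RefSeq promoter. Its window lies at chr19:34255324-34255623 (minus strand, GRCm38.p6). The serum response factor binds CArG boxes in genes of smooth muscle contraction. The strict CArG box was in none of the 19 genes (1.76% of all genes). A looser form with at most 1 C or G between its CC and GG, added after the strict search, was in 11.1% of all genes and in 4 of the 19 (Tek, Egfl7, Eng, Acta2). Capitals mark the 2 loose matches of Acta2, which begin 84 and 34 bases before the start.
Acta2: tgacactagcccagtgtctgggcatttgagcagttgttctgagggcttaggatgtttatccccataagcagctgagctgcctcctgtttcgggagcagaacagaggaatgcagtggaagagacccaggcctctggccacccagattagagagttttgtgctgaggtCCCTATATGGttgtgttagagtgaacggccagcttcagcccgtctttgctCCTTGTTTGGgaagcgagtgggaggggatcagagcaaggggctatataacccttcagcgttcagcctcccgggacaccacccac
The absence of a strict match concerns only these letters in this window.

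Rad + R788 + anti-PDL1 was then compared with vehicle. No member was called (0 of 36 by edgeR's quasi-likelihood test, against 0.0439% of all genes tested), and 5 members had an unadjusted p under 0.05, all higher (7.71% of all genes tested were higher and 5.51% lower, 13.2% in all). In 4 members all treated libraries lay above vehicle and in 1 below, against 9.26% and 11.2% of all genes (20.5% in both directions). DESeq2, whose calls over all genes are given further below, called 2 members (Cd34, Cspg4). Limma-voom called 0 with 4 at an unadjusted p under 0.05, and voom with sample quality weights 4, without a share of all genes here. The median log2 fold change was 0.38 over the endothelial members (21 of 28 above 0), -0.14 over the mural members (3 of 8 above 0) and 0.05 over all genes tested. Cspg4 had the lowest p-value, with 77.3, 63.5 and 59.1 CPM in irradiated tumors. Its 3 groups did not overlap at all, in the order vehicle, R788 + anti-PDL1, Rad + R788 + anti-PDL1. The log2 fold change against vehicle was 1.05 ± 0.20 (edgeR adjusted p = 0.12, DESeq2 adjusted p = 0.000331, range over 19 alternatives 0.000331 to 0.577).

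Some values of this comparison rested on the library that stood apart. Egfl7, a matrix protein secreted by endothelium, measured 10.8, 5.7 and 7.45 CPM in vehicle tumors and 35.3, 10.1 and 12.3 CPM in irradiated tumors. Replicate 1 was far above the others (log2 fold change 1.27 ± 0.49, edgeR adjusted p = 0.341, and 0.52 without it). Its exons overlap those of Gm20532 and Mir126a on the same strand and of Agpat2 and Mir126b on the other, so its counts are uncertain. Notch3 measured 101, 157 and 142 CPM in vehicle tumors and 19.2, 107 and 95.7 CPM in irradiated tumors, with replicate 1 far below (log2 fold change -0.84 ± 0.50, edgeR adjusted p = 0.451, and -0.36 without it). Notch4 measured 4.47, 12 and 5.2 CPM in vehicle tumors and 3.31, 5.32 and 2.74 CPM in irradiated tumors. The groups overlapped, and its log2 fold change of -0.93 ± 0.55 was the lowest of the 36 (edgeR adjusted p = 0.448) and -0.35 without vehicle replicate 2. Myh11 measured 1.71, 1.44 and 1.64 CPM in vehicle tumors and 0.368, 1.22 and 1 CPM in irradiated tumors, and was the 1 member below vehicle in all libraries (log2 fold change -0.86 ± 0.52, edgeR adjusted p = 0.453, and -0.49 without replicate 1). The first irradiated library had the highest of all 9 levels for Emcn, Egfl7, Cldn5, Plvap, Esm1 and Cspg4, and 0 counts of Erg, although it was the highest library for 30.4% of all genes tested. Without it the endothelial median was 0.31, with 20 of 28 above 0. Without replicate 3, the tumor with the highest leukocyte sum, the endothelial median was 0.08 with 18 of 28 above 0.

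**Figure D3:**
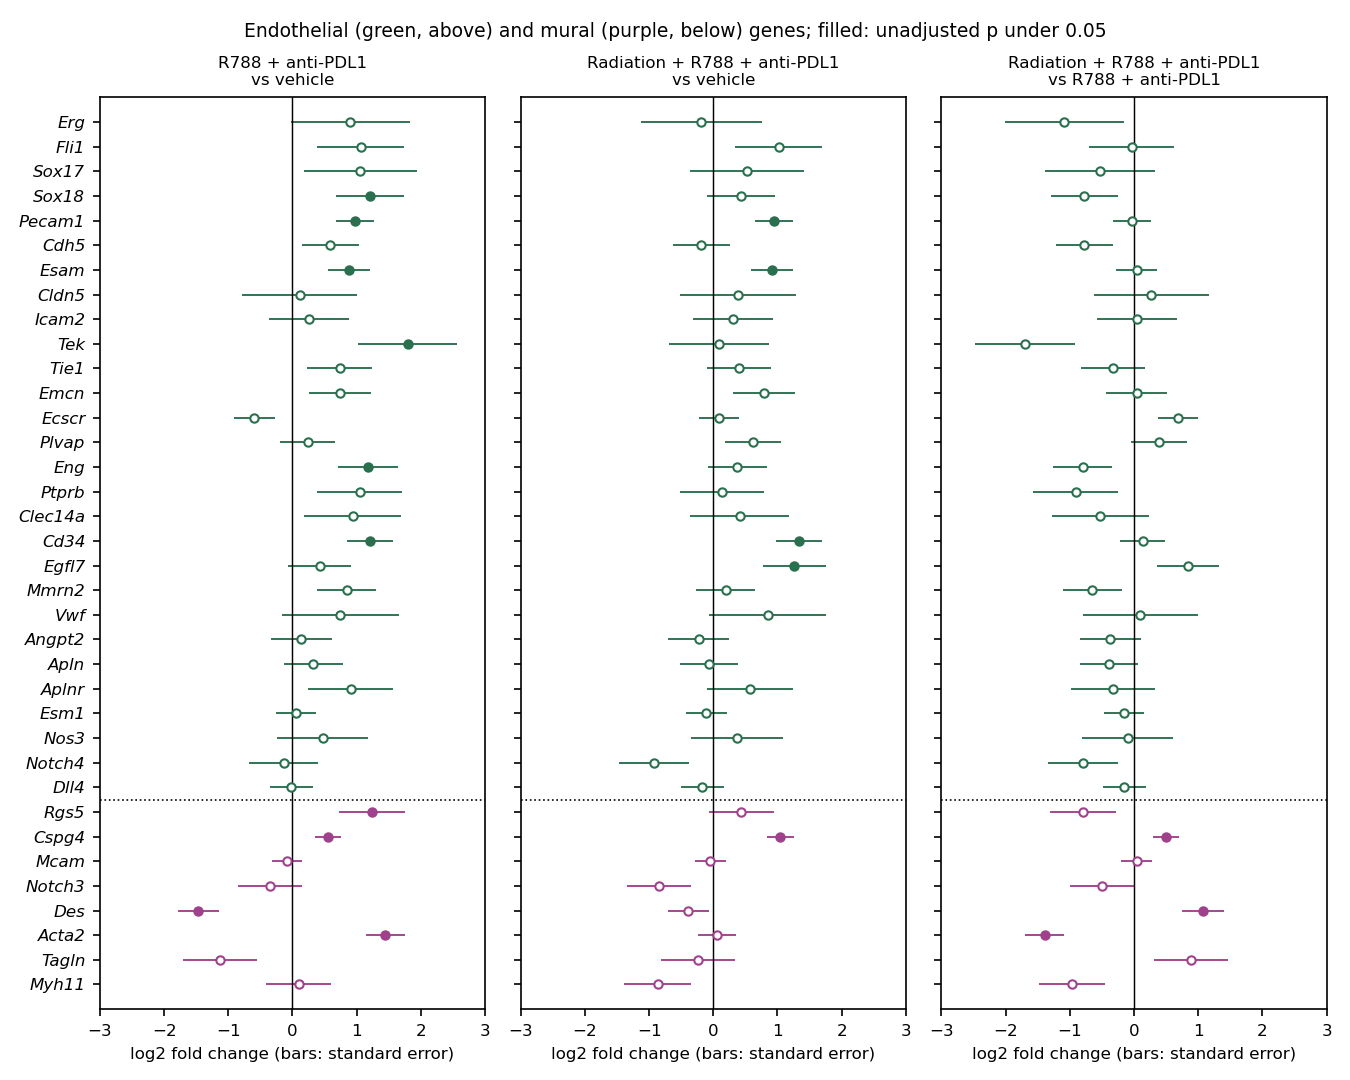
Log2 fold changes (points) with standard errors (bars) of the 28 endothelial (green) and 8 mural (purple) genes in the 3 comparisons, from edgeR. Filled points mark an unadjusted p under 0.05, and no point passed the adjusted threshold. In R788 + anti-PDL1 against vehicle 25 of 28 endothelial points lie to the right of 0, while Acta2 at 1.45 and Des at -1.46 lie on opposite sides.

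The last comparison asked what radiation added to R788 + anti-PDL1. It shares its groups with both other comparisons, so the values are not independent of them. Again 0 of 36 members were called by edgeR's quasi-likelihood test (0.00628% of all genes tested), and 3 had an unadjusted p under 0.05, 2 higher and 1 lower, where 11.7% of all genes tested were higher and 6.65% lower (18.4% in all). Groups did not overlap for 4 members that were higher and 2 that were lower, against 14.3% and 13.1% of all genes (27.4% in both directions). DESeq2, whose calls over all genes are given further below, called 2 members (Acta2, Des). Limma-voom called 0 with 4 at an unadjusted p under 0.05, and voom with sample quality weights 5, without a share of all genes here. All 3 members with a low p were mural. Acta2 had a log2 fold change of -1.39 ± 0.30 (edgeR adjusted p = 0.156), Des of 1.07 ± 0.32 (edgeR adjusted p = 0.222) and Cspg4 of 0.49 ± 0.20 (edgeR adjusted p = 0.253). Tagln, at 32.5, 12.4 and 12.8 CPM in irradiated tumors, lay above the R788 + anti-PDL1 range in all of them (log2 fold change 0.89 ± 0.58, edgeR adjusted p = 0.409, and 0.29 without replicate 1). Acta2 was thus lower, and Des and Tagln higher, in every irradiated tumor than in every R788 + anti-PDL1 tumor. The irradiated values of Acta2 and Tagln overlapped vehicle. For Des the overlap came only from irradiated replicate 1 (120 CPM), the library that stood apart. Irradiated replicates 2 and 3 (65 and 57.4 CPM) lay below every vehicle tumor (73.3, 125 and 120 CPM). Over 19 alternatives the log2 fold change of Des between the treated groups was 0.68 to 1.27. Myh11 was likewise lower in every irradiated tumor (log2 fold change -0.96 ± 0.52, edgeR adjusted p = 0.329).

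The endothelial members gave a median log2 fold change of -0.24 (9 of 28 above 0), against -0.23 for the mural members and 0.04 for all genes tested. This direction depended on R788 + anti-PDL1 replicate 2, without which the endothelial median was 0.26 with 17 of 28 above 0. Tek measured 0.516, 1.01 and 1.05 CPM in irradiated tumors, with a log2 fold change of -1.70 ± 0.77 (edgeR adjusted p = 0.277) that was -0.80 without that library. Erg had counts of 17, 57 and 36 with R788 + anti-PDL1 and 0, 20 and 22 in irradiated tumors. The groups overlapped (log2 fold change -1.08 ± 0.93, edgeR adjusted p = 0.525, and -0.54 without irradiated replicate 1). Egfl7 had a log2 fold change of 0.84 ± 0.49 (edgeR adjusted p = 0.361) and of 0.07 without the first irradiated library. Ecscr was higher in every irradiated tumor, at 13.4 to 15.1 CPM against 5.51 to 11.4 CPM with R788 + anti-PDL1 (log2 fold change 0.68 ± 0.32, edgeR adjusted p = 0.281).

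Endothelial genes were also set against mural genes within each library, by the mean log2 CPM of the 28 endothelial members minus that of the 8 mural members. The difference was -2.85, -2.55 and -2.68 in vehicle tumors, -2.67, -1.89 and -2.22 with R788 + anti-PDL1 and -2.14, -2.61 and -2.18 with Rad + R788 + anti-PDL1. Vehicle tumors lay lowest, but the ranges of all 3 groups overlapped. The group means were -2.69 ± 0.15, -2.26 ± 0.39 and -2.31 ± 0.26 (SD, n = 3), that is 0.43 and 0.38 above vehicle for the treated groups and -0.05 between them. With the median of the members in place of the mean these differences from vehicle were 0.04 and 0.02, so the shift depended on how the members were summarised. No p-value is given for the score. The endothelial mean alone was almost the same in the 3 vehicle tumors (1.92, 1.96 and 1.94) and spread from 1.79 to 3.13 with R788 + anti-PDL1. Pairs of single genes were compared as well. The ratio of Rgs5 to Pecam1 counts was 1.23, 1.58 and 1.38 in vehicle tumors, 1.1, 2.14 and 1.29 with R788 + anti-PDL1 and 0.673, 1.13 and 1.11 with Rad + R788 + anti-PDL1. All irradiated tumors lay below all vehicle tumors for this ratio, which was chosen after the values were seen, whereas the ratio of Cspg4 to Pecam1 overlapped (1.84 to 2.48 in vehicle and 1.94 to 2.93 in irradiated tumors).

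**Figure D4:**
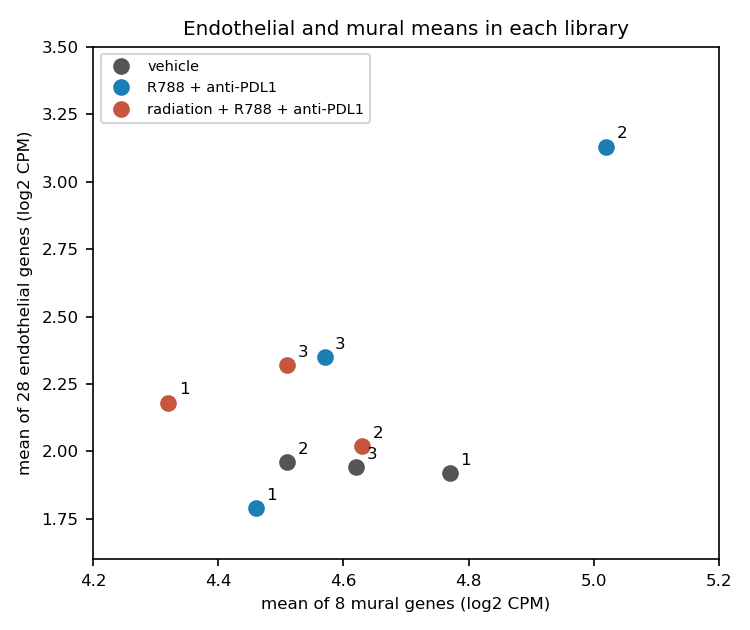
Mean log2 CPM of the 28 endothelial genes (vertical axis) against that of the 8 mural genes (horizontal axis) in each library (points, numbered by replicate, colored by group). R788 + anti-PDL1 replicate 2 lies apart at 3.13 and 5.02, and the 3 vehicle tumors share an endothelial mean of 1.92 to 1.96.

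Further vascular genes were read from the same fit, and none of them was called by edgeR's quasi-likelihood test in any comparison with all libraries. Of 26 other endothelial genes, 5 had an unadjusted p under 0.05 with R788 + anti-PDL1 against vehicle, all higher, where 5.96% of all genes tested were higher. The list median was 0.70, and 0.34 without replicate 2. S1pr1, the sphingosine phosphate receptor that stabilizes junctions, was at 2.79 to 4.71 CPM in vehicle tumors and 10.4 to 11.9 CPM with R788 + anti-PDL1 without overlap (log2 fold change 1.46, edgeR adjusted p = 0.0793). Nrp1, a co-receptor of VEGF, had a log2 fold change of 1.79 (edgeR adjusted p = 0.147) with all 3 replicates above vehicle. Without the first irradiated library, S1pr1, Nrp1 and Rasip1 were called in this comparison (edgeR adjusted p = 0.0248, 0.0312 and 0.0332). The share of all genes called in that fit is not given here. S1pr1 was high in all 3 R788 + anti-PDL1 tumors, as Acta2 was, and not in replicate 2 alone. With Rad + R788 + anti-PDL1, 4 of the 26 were higher than vehicle at an unadjusted p under 0.05 (7.71% of all genes tested), with a list median of 0.23. Klf2, the transcription factor induced by blood flow, measured 11 to 16.6 CPM in vehicle tumors and 84, 32.4 and 24.9 CPM in irradiated tumors (log2 fold change 1.69, edgeR adjusted p = 0.235, and 1 without replicate 1).

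Of 11 tested Notch pathway genes, 2 were higher than vehicle at an unadjusted p under 0.05 with R788 + anti-PDL1 (5.96% of all genes tested). Notch1, a Notch receptor of many cell types, was 1 of them and rested on replicate 2, at 7.58, 65.5 and 17.4 CPM (log2 fold change 1.98, edgeR adjusted p = 0.418, and 0.71 without that library). Jag1, a Notch ligand, measured 22.8 to 27.9 CPM in vehicle tumors, 42.2 to 82.7 CPM with R788 + anti-PDL1 and 40.4 to 67.5 CPM with Rad + R788 + anti-PDL1. Both treated groups lay above vehicle, with log2 fold changes of 1.24 (edgeR adjusted p = 0.0986, and 0.0228 without the first irradiated library) and 1.11 (edgeR adjusted p = 0.217). Of the 4 tested genes of activated endothelium, Vcam1, the adhesion molecule that binds lymphocytes, had log2 fold changes against vehicle of 1.97 with R788 + anti-PDL1 (edgeR adjusted p = 0.18) and 1.48 with Rad + R788 + anti-PDL1 (edgeR adjusted p = 0.333), the latter being 0.77 without replicate 3. Cd74, the invariant chain of MHC class II that leukocytes make in quantity, was at 39.9 to 51.4 CPM in vehicle tumors and at 169, 81.7 and 655 CPM in irradiated tumors, with its highest level in the library with the highest leukocyte sum. The 9 leukocyte markers had median log2 fold changes against vehicle of 0.87 with R788 + anti-PDL1 and 1.19 with Rad + R788 + anti-PDL1. The latter rested on replicate 3. The irradiated sums were 181, 160 and 800 CPM, so that replicates 1 and 2 lay within the vehicle range of 129 to 253 CPM. The part of leukocytes in the values of these genes was not tested. The selectin Sele and the venular receptor Ackr1 were not tested, and Sele had at most 0.11 CPM in any library. Of 4 tested lymphatic genes, Pdpn, which fibroblasts and tumor cells also make, was lower with R788 + anti-PDL1 than in all vehicle tumors (5.15 to 15.2 CPM against 18.6 to 24 CPM, log2 fold change -1.19, edgeR adjusted p = 0.205).

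Of 16 tested further mural genes, 3 were higher and 1 lower at an unadjusted p under 0.05 with R788 + anti-PDL1 (5.96% and 5.69% of all genes tested), 13 were above 0 and the median log2 fold change was 0.64, against 0.70 for the other endothelial genes. Without replicate 2 the mural median was 0.09, with 10 of 16 above 0. With Rad + R788 + anti-PDL1 the further mural genes had a median of 0.47 against 0.23 for the other endothelial genes. This order depended on the first irradiated library, without which the medians were 0.24 and 0.35. Without irradiated replicate 3 they were 0.57 and 0.12. Among the further mural genes, Tbx2 had the lowest p with R788 + anti-PDL1 (log2 fold change 1.03, edgeR adjusted p = 0.236). It measured 19.5 to 35.1 CPM in vehicle tumors and 77.1, 34.6 and 70.1 CPM with R788 + anti-PDL1, with overlap at replicate 2. Cald1, the actin-binding caldesmon, was at 81.7 to 99 CPM in vehicle tumors and 125 to 141 CPM with R788 + anti-PDL1. It was higher without overlap, as Acta2 was (log2 fold change 0.59, edgeR adjusted p = 0.408). Without the first irradiated library its edgeR adjusted p was 0.0223. Lmod1, leiomodin of smooth muscle, was lower without overlap (log2 fold change -1.55, edgeR adjusted p = 0.252). Foxs1, a pericyte transcription factor, was at 0.314 to 0.772 CPM in vehicle tumors, 1.18 to 2.29 CPM with R788 + anti-PDL1 and 3.33 to 9.94 CPM with Rad + R788 + anti-PDL1, without overlap between any of the groups (log2 fold change of the last against vehicle 3.29, edgeR adjusted p = 0.0953).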

How the data were processed

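RNA was extracted from whole tumors, enriched for poly(A) and sequenced, in 3 libraries of each group as labelled. Per the labels, the authors' processing notes name STAR 2.6.1d, Salmon 1.4.0, SAMtools 1.9, Picard 2.26 and MultiQC 1.11 with build mm10. The deposited table holds Salmon's estimated counts per gene symbol as whole numbers, without normalization. The authors compared groups with DESeq2, and strandedness is not given in the sources used here. The extraction label names BMDMs although the tissue label is whole tumor, and the labels give a paired-end run where the methods give single reads.

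A low-count filter (filterByExpr, minimum 10 counts) kept 15931 genes, and counts were scaled by TMM and fitted with edgeR 4.0.16 (R 4.3.3, robust quasi-likelihood F test, two-sided, all 9 libraries in 1 fit, 1 coefficient per group). Benjamini-Hochberg adjustment covered all genes tested, with calls at an adjusted p under 0.05. DESeq2 1.42.0 and limma 3.58.1 (voom) were alternatives, beside other scalings, filters, a replicate term and leaving out libraries. The code was tested on simulated data. Class scores used log2 CPM with a prior count of 2. Symbols were matched to GENCODE M21 (53739 single, 112 several, 578 none), which gave coordinates, exon lengths and overlaps. Nothing states that replicates of a group differ in more than their number, so p-values measure the spread between these samples, which may be technical. Replicate libraries differed beyond counting noise and were all kept. Members and gene lists were chosen with earlier results of these data known. Full statistics are given for members with an unadjusted p under 0.05 and for the 3 highest and 3 lowest log2 fold changes of each comparison, and of the other lists at most the 4 genes with the lowest p. Marker lists of fibroblasts, skeletal muscle, leukocytes, megakaryocytes, Schwann cells, neuroblasts, adipocytes and keratinocytes were summed as CPM, and 1 marker is not reported here.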

Additional observations from a re-analysis of the deposited data

How the results depend on the processing

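No member was called in the edgeR fit of all libraries, and the number called depended on the tool and on single libraries. For R788 + anti-PDL1 against vehicle, 4 members were called by DESeq2, 1 by limma-voom, 9 by voom with sample quality weights, 2 without the low-count filter, 2 with only the 6 libraries compared, and 0 to 2 when each library was left out in turn. The 2 (Acta2, Des) appeared without the first Rad + R788 + anti-PDL1 library. For Rad + R788 + anti-PDL1 against vehicle 2 were called by DESeq2 and 4 by voom with quality weights, and between the treated groups 2 and 5, with 0 whichever library was left out. Without both R788 + anti-PDL1 replicate 2 and Rad + R788 + anti-PDL1 replicate 1, a setting chosen after seeing the data, 2, 3 and 1 members were called in the 3 comparisons. The cause of these differences was not tested. RLE and upper-quartile scaling and a minimum of 10 counts in every library gave 0 in each comparison. The log2 fold changes picked by the naming rule (12, 8 and 7 in the 3 comparisons) kept their direction under every alternative run. Over all 15931 genes tested the calls were 108, 7 and 1 by edgeR and 770, 611 and 822 by DESeq2. DESeq2 thus called many more genes in general, and its member counts are to be read beside these totals. Calls over all genes are not given here for the other alternatives, so their member counts have no background beside them.

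With the median of the members in place of the mean, the endothelial minus mural difference was 0.04 for R788 + anti-PDL1 and 0.02 for Rad + R788 + anti-PDL1 against vehicle, against 0.43 and 0.38. Leaving out each library gave 0.25 to 0.64, 0.30 to 0.53 and, between the treated groups, -0.25 to 0.13. Same-number correlations of deviations from the group means were -0.05 to 0.23, and different-number correlations were -0.23 to 0.12. The highest same-number values, 0.23 and 0.19, were between Rad + R788 + anti-PDL1 and vehicle. With 3 libraries per group these values cannot decide whether replicate numbers pair the samples. With a replicate block 0 members were called in each comparison, 8, 7 and 4 had an unadjusted p under 0.05 against 10, 5 and 3 without it, and the class differences were 0.43, 0.38 and -0.05.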

Other observations

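Fabp4, a fatty acid carrier of adipocytes, capillary endothelium and macrophages, carried nearly all of the adipocyte list, at 17.9, 42.5 and 37.6 CPM in vehicle tumors, 27.1, 21.6 and 26.7 CPM with R788 + anti-PDL1 and 25, 10.1 and 10.4 CPM with Rad + R788 + anti-PDL1. Adipoq, Plin1, Lep and Cidec stayed at or under 0.86 CPM. Krt5, which likewise carried the keratinocyte list, measured 74.9, 54 and 46.5 CPM in the irradiated tumors, above every vehicle tumor, while Krt14 had 0, 2 and 0 counts there against 4, 41 and 43 in vehicle tumors. The neuroblast markers summed to 503 to 973 CPM over the 9 libraries, nearly all of it from Hand2 (324 to 866 CPM) and Mycn (93.2 to 250 CPM). Lyve1, a receptor of lymphatic endothelium and of some macrophages, measured 0.617, 13.4 and 3.77 CPM in the R788 + anti-PDL1 tumors, with its highest value in replicate 2, and 0, 0.152 and 3.65 CPM in the irradiated tumors. Hes1, a target of Notch signaling, measured 62.7, 17.7 and 17.7 CPM in the irradiated tumors and 7.81 to 10.7 CPM in vehicle tumors, with its highest value in the library that stood apart.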
